A study of Mus musculus with 4 samples.

Results

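Integrins, cadherins and protocadherins are the families described here, as transcribed in JoMa1.3 cells, a conditionally immortalised line of mouse neural crest progenitors. Members were the rows of the deposited gene table whose symbol was that of an integrin alpha or beta subunit, a numbered cadherin or a protocadherin, and whose read count averaged at least 20 over the 4 libraries. That level chose 47 members of 91 matching rows, out of 15768 genes in all. They were 11 integrin alpha subunits of 13 listed, 6 integrin beta subunits of 8, 7 cadherins of 15 and 23 protocadherins of 55. Since the mean over all 4 libraries made the choice, the levels below are a description. That mean did not use the siRNA or the batch of a library.

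All libraries came from wild-type JoMa1.3 cells kept in medium with chick embryo extract, epidermal growth factor and fibroblast growth factor. The cells received 60 nM of pooled siRNA directed at Stk11, which encodes the kinase LKB1, or of a non-targeting pool, and RNA was taken 72 h later. Each group had 2 libraries, and 1 library of each group belonged to culture batch 1 and the other to batch 2. The labels name 2 transfection reagents, jetPRIME and RNAiMax lipofectamine, without saying which culture received which. The study looked for genes that act downstream of Lkb1 loss. It used 1 cell line and left part of the Stk11 mRNA in place, so the groups model a partial knockdown in culture and not a deletion in the embryo.

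Integrins are receptors for the extracellular matrix and work as pairs of an alpha and a beta subunit, so the level of either subunit can limit how much receptor reaches the surface. Cadherins join neighbouring cells through calcium-dependent contacts, and neural crest cells are known for replacing one set of cadherins with another as they leave the neural tube and migrate. Protocadherins are the largest branch of the cadherin superfamily. The clustered ones are made from tandem arrays of variable exons that lend a cell its recognition identity, and the non-clustered ones act in cell sorting and migration.

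Library totals ran from 17426719 to 19324675 gene counts. Stk11 checked the labels, at 121.5 and 117.9 CPM (counts scaled to library size) with control siRNA against 81.4 and 82.0 CPM with Lkb1 siRNA (log2 fold change -0.55 with SE 0.0659, adjusted p by edgeR = 0.0378). Of 10 neural crest progenitor markers 8 were listed and 6 averaged at least 1 FPKM (a level scaled to transcript length and library size). Twist1 was highest at 31.2 FPKM, Sox9 averaged 12.9 FPKM, Ednrb was near 0, and Sox10 and Foxd3 were not analysed here. The summed markers of epithelium (2.80 to 3.56 FPKM over 6 genes), endothelium (0.37 to 0.65 over 7), leukocytes (3.22 to 3.65 over 6) and glia (0.76 to 1.44 over 4) stayed low in every library, with Esrp1, Tie1 and Laptm5 at or near 0. The 2 neuronal markers listed summed to 7.71 to 11.62 FPKM, nearly all of it Tubb3, with Elavl3 near 0. Smooth muscle and fibroblast markers were abundant, with 8 of 10 at 1 FPKM or more, although Cnn1 and Myh11 were near 0.

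To show what lies upstream of some members that come up below, promoters were read from RefSeq (build GRCm38.p6, not the authors' build), which had an entry for 21 of the 47 members. The first entry of each gene was used, and for 72.5% of genes its start was the gene's annotated start. Whether this holds for the promoters printed below was not checked, so theirs may be internal starts. The 250 bases before the entry's start were searched on both strands for CAGGTG or its reverse complement CACCTG, the E-box form bound by Snail and Zeb factors. They were also searched for GGGCGG or CCGCCC, the GC box. No E-box found in a member overlapped a GC box. An E-box of that form stood in 4 of the 21 promoters (19.0%), against 17.1% of all 27025 promoters in the table. A GC box stood in 8 (38.1%), against 32.94% of all promoters. The promoters shown are those of Itga9, Cdh24 and Cdh6, members with differences between the siRNA groups in the fit with batch described below whose promoters held either motif; those of Itga10 and Pcdh9, also in that set, held neither. Each is printed 5′ to 3′ on the gene's strand with the motifs in capitals. They lie at chr9:118711442-118711691 on the plus strand, chr14:54641365-54641614 on the minus strand and chr15:13173676-13173925 on the minus strand, in that order.
Itga9: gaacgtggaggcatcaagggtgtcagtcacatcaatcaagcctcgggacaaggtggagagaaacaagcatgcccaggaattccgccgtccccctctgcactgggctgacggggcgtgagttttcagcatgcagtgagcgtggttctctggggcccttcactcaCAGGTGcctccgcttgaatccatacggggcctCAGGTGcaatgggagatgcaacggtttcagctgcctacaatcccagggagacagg
Cdh24: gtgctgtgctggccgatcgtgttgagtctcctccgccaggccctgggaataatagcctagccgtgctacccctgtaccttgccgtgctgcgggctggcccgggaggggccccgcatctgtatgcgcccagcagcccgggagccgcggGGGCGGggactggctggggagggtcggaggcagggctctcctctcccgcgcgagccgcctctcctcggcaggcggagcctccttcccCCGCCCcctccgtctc
Cdh6: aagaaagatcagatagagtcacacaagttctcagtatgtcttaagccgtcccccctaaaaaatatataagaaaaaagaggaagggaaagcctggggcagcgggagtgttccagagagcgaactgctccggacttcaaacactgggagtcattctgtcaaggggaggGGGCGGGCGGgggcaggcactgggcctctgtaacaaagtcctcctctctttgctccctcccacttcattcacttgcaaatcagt
Itga9 held 2 E-boxes, starting at -87 and -55 from the entry's start, and no GC box. Cdh24 held GC boxes at -103 and -16, and Cdh6 held a pair of overlapping GC boxes at -84 and -80, with no E-box of that form in either. The other promoters with this E-box belonged to Itga3, Itgb5 and Itgb8. A match to these letters is a description of the sequence only.

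The beta subunits carried the highest summed level of the 4 families. In the order control siRNA batch 1 and batch 2, then Lkb1 siRNA batch 1 and batch 2, the 6 beta subunits summed to 358.27, 354.6, 348.85 and 358.52 FPKM. The 23 protocadherins summed to 167.5, 178.83, 170.78 and 183.62 FPKM, the 7 cadherins to 135.73, 161.77, 137.97 and 156.52 FPKM, and the 11 alpha subunits to 132.16, 131.17, 142.94 and 135.4 FPKM. Beta subunits therefore exceeded alpha subunits 2.71-fold, 2.70-fold, 2.44-fold and 2.65-fold in the same order. All members together made up between 0.12% and 0.13% of the summed FPKM of a library.

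**Figure D1:**
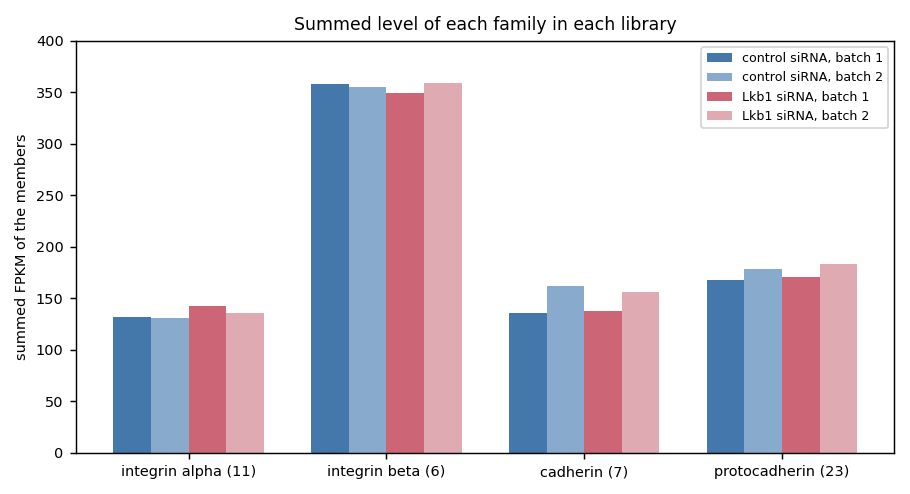
Summed FPKM of the members of each family in each library, with the number of members in parentheses and bars starting at 0. Beta subunits stood between 348.85 and 358.52 FPKM in all 4 libraries, and the cadherin sum was higher in both batch 2 libraries than in both batch 1 libraries.

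Each family was led by 1 gene. Itgb1 gave 75.2% of the beta subunit sum, Cdh11 gave 73.4% of the cadherin sum, Pcdhgc3 gave 42.0% of the protocadherin sum and Itga3 gave 40.2% of the alpha subunit sum. The median member was far lower, at 11.01 FPKM for beta subunits, 3.51 FPKM for alpha subunits, 3.41 FPKM for cadherins and 1.06 FPKM for protocadherins. Of the 47 members, 31 averaged at least 1 FPKM and 12 at least 10 FPKM. Of the 4 families, spread between the 4 libraries was narrowest in the beta subunits, with a median coefficient of variation of 6.58%. It was 15.9% in the alpha subunits, 17.0% in the cadherins and 22.7% in the protocadherins. Within the protocadherins it was 6.41% for non-clustered members (median level 20.4 FPKM). It was 27.0% for clustered beta members (0.5875 FPKM) and 26.4% for clustered gamma members (0.985 FPKM).

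**Figure D2:**
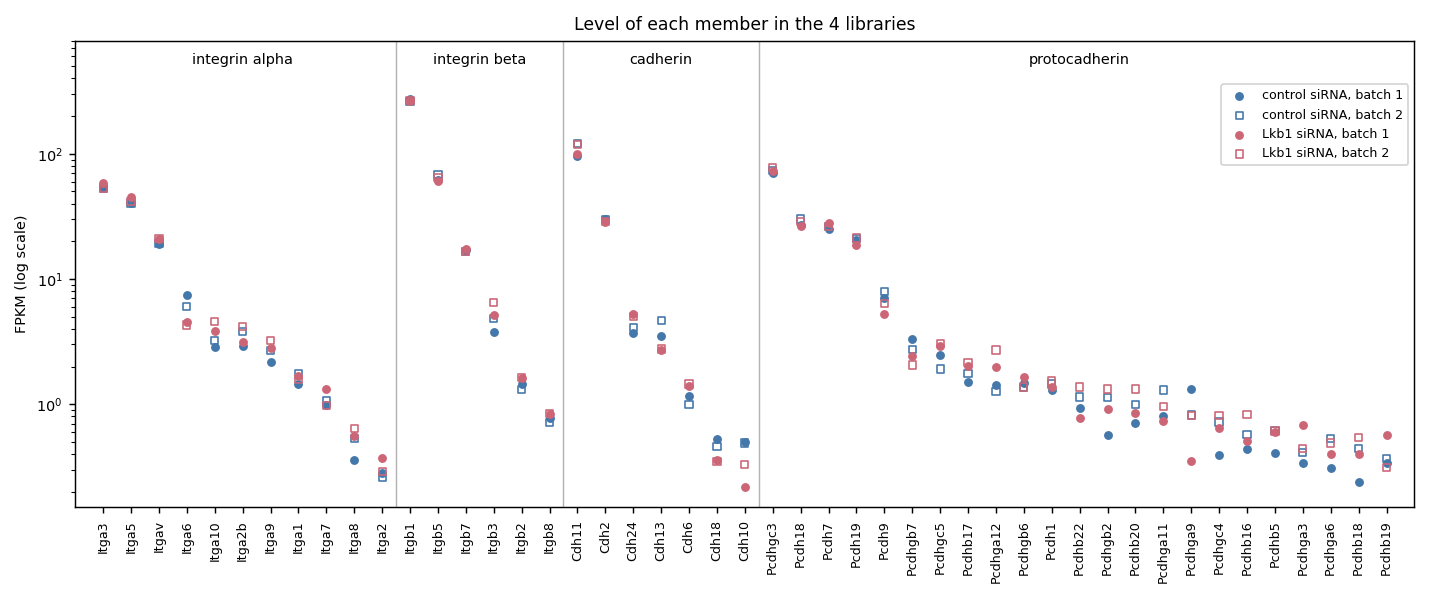
Level of each of the 47 members in the 4 libraries, in FPKM on a log scale, ordered by mean level within each family; filled circles are batch 1 and open squares batch 2. The leading member of each family lay well above the median of its family, and the 4 libraries lay close together for members over 10 FPKM.

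Among the beta subunits, Itgb1 (gene ID 16412), the partner of most matrix-binding alpha subunits, stood at 273.58 and 263.02 FPKM with control siRNA and 262.96 and 268.18 FPKM with Lkb1 siRNA. Itgb5, which pairs with the alpha V subunit in a vitronectin receptor, followed at 61.57, 68.10, 60.82 and 64.75 FPKM. Itgb7 stood at 17.09, 16.63, 17.47 and 16.65 FPKM. Itgb7 is known to pair with the alpha subunits Itga4 and Itgae, mainly on lymphocytes, and these partners were close to absent: Itga4 had 2 counts in the 4 libraries together and Itgae averaged 0.065 FPKM. Itgb3, Itgb2 and Itgb8 averaged 5.06, 1.51 and 0.79 FPKM. For Itgb2, the leukocyte beta subunit, the listed partners Itgal and Itgax averaged 0.085 and 0.018 FPKM, and Itgam and Itgad were not analysed here.

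The alpha subunits were led by Itga3, a laminin receptor, at 54.05 and 52.56 FPKM with control siRNA and 58.14 and 53.20 FPKM with Lkb1 siRNA. Itga5, the fibronectin receptor subunit, stood at 40.71, 40.03, 45.50 and 41.32 FPKM, and Itgav, which recognises the RGD motif of vitronectin and fibronectin, at 18.98, 19.19, 21.04 and 21.12 FPKM. These 3 genes gave 86.0% of the alpha subunit sum. Grouped by known ligand, the laminin receptors Itga3, Itga6 and Itga7 summed to 62.43, 59.69, 64.03 and 58.46 FPKM. The RGD receptors Itga5, Itgav, Itga8 and Itga2b summed to 62.95, 63.58, 70.26 and 67.24 FPKM, and the collagen receptors Itga1, Itga2 and Itga10 to 4.59, 5.21, 5.85 and 6.45 FPKM. The RGD and collagen sums were higher in both Lkb1 siRNA libraries than in both control siRNA libraries, while the laminin receptor sums overlapped between the groups.

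Cdh11, a cadherin of mesenchyme and of migrating crest cells, led the cadherins at 96.34 and 121.31 FPKM with control siRNA and 99.28 and 117.82 FPKM with Lkb1 siRNA. Cdh2, or N-cadherin, stood at 29.95, 29.79, 28.74 and 28.77 FPKM, so that Cdh11 averaged 3.71-fold more than Cdh2. Cdh1, or E-cadherin, the epithelial cadherin, missed the rule with 4, 1, 2 and 2 counts. Its total of 9 counts stood against 9870 for Cdh2. Cdh24 and Cdh13 averaged 4.53 and 3.41 FPKM, Cdh6 ranged from 0.99 to 1.45 FPKM, and Cdh18 and Cdh10 stayed below 1 FPKM. Cdh5, the endothelial cadherin, and Cdh3 were listed below the rule, at 0.10 to 0.19 FPKM and 0.01 to 0.16 FPKM. Cdh7 and Cdh19, known from crest cells and their glial progeny, were not analysed here.

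Protocadherins divided into 5 non-clustered members and 18 from the clustered arrays. The non-clustered members were Pcdh18 at 26.86, 30.19, 26.33 and 28.92 FPKM, Pcdh7 at 25.05, 26.11, 27.77 and 26.40 FPKM and Pcdh19 at 20.37, 21.11, 18.74 and 21.29 FPKM, with Pcdh9 averaging 6.66 FPKM and Pcdh1 averaging 1.42 FPKM. No listed gene of the alpha array reached the rule (0 of 3), against 7 of 21 of the beta array and 11 of 21 of the gamma array. Pcdhgc3, one of the C-type variable exons at the end of the gamma array, held 85.2% of the gamma sum, at 69.87, 73.97, 72.85 and 77.89 FPKM. The other 10 gamma members averaged between 0.43 and 2.64 FPKM, and the 7 beta members between 0.40 and 1.86 FPKM. Gamma transcripts share their constant exons, and each of the 11 gamma members had deposited counts that were not whole numbers, in all 4 libraries for 10 of them and in 3 for Pcdhga9. Of the 7 beta members, Pcdhb18 and Pcdhb5 each had such a count in 1 library. Levels of single gamma genes are therefore uncertain, since the counting could split shared reads between them. Members of the other families had whole counts.

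At the threshold of the rule, Pcdhb19, Cdh18 and Cdh10 averaged 32.25, 21.75 and 21.0 counts just inside it. Cdh17, Pcdhb9 and Pcdhb21 averaged 18.75, 17.57 and 17.25 counts just outside it.

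After Lkb1 siRNA, none of the 47 members passed in the comparison of the groups without a batch term (0 higher and 0 lower at an adjusted p under 0.05, edgeR's quasi-likelihood test over 12222 genes). In that fit 0.0818% of all genes tested passed, 0.0327% higher and 0.0491% lower, so few genes of any kind did. At an unadjusted p under 0.05 there were 6 members higher and 6 lower, 25.5% of the members against 11.1% of all genes (5.61% higher, 5.53% lower). DESeq2 called 1 member, Itga6, and 0.399% of all genes it tested. With batch as a replicate block, edgeR called 12 members, 7 higher and 5 lower, or 25.5% of the members against 13.6% of all genes (6.59% higher, 6.99% lower). In CPM, both Lkb1 siRNA libraries lay above both control siRNA libraries for 14 members (29.8%, against 21.2% of all genes tested) and below them for 9 (19.1%, against 21.4%). Together these were 48.9% of the members, against 42.7% of all genes tested. The mean was higher after Lkb1 siRNA in 31 of the 47, with a median log2 fold change of 0.07, beside 50.2% and a median of 0.00 over all genes tested. In bulk libraries, fewer cells that express a gene and less RNA per cell cannot be told apart.

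**Figure D3:**
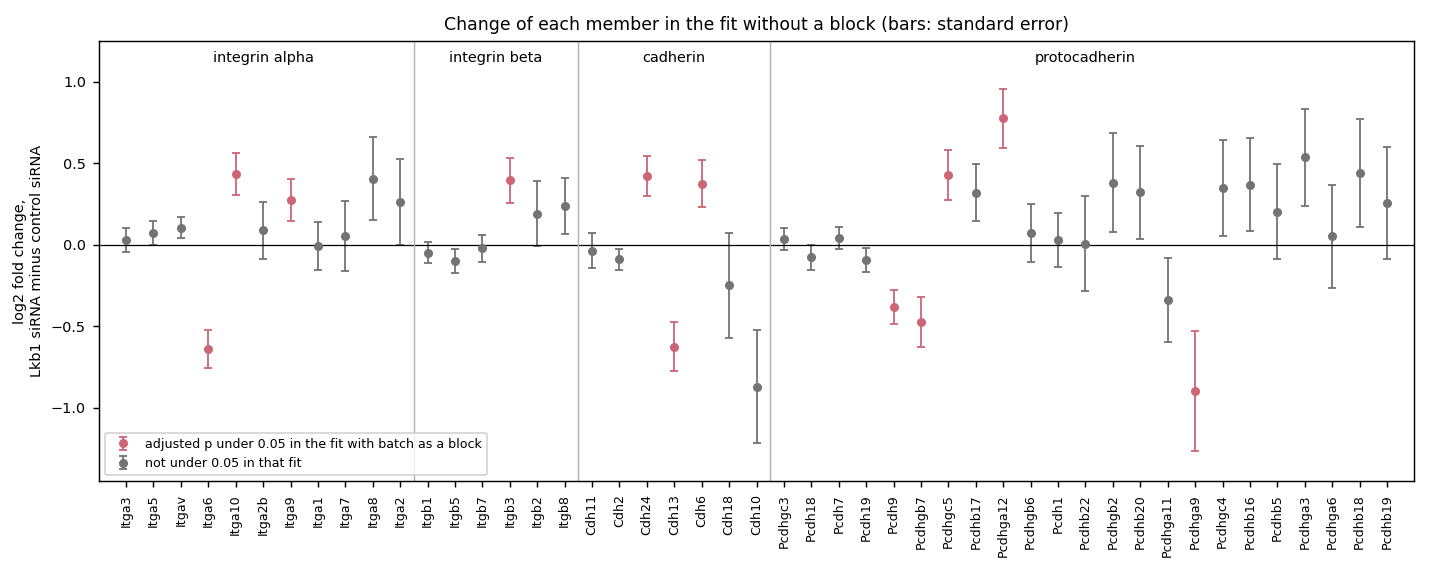
Log2 fold change of each member, Lkb1 siRNA minus control siRNA, in the fit without a batch term, with its standard error as a bar and members in the order of level within each family. Red marks the 12 members whose adjusted p was under 0.05 with batch as a block; the most abundant member of each family lies near 0 and is not among them.

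The abundant receptors differed little between the groups. The 11 members averaging over 2000 counts had log2 fold changes between -0.10 and 0.10 with SE between 0.0636 and 0.109, and none passed with the block, against 21.6% of all genes at that depth. Itgb1 gave -0.05 (SE 0.0636), Itga3 0.03 (SE 0.0727), Cdh11 -0.04 (SE 0.109), Cdh2 -0.09 (SE 0.0647) and Pcdhgc3 0.03 (SE 0.0681). In FPKM the groups overlapped for these genes except Cdh2, whose Lkb1 siRNA libraries were both lower. Of the 11 members averaging 200 to 2000 counts, 9 passed with the block, against 13.7% of genes at that depth. Of the 25 members averaging 20 to 200 counts, 3 passed, against 8.07%. In that class SE ran from 0.145 to 0.367 with a median of 0.282, the widest of the 3 classes. The depth classes were chosen after the values were seen.

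Itga6 (gene ID 16403), a laminin-binding alpha subunit that pairs with Itgb1 or Itgb4, was the member with the smallest p. It stood at 7.39 and 6.06 FPKM with control siRNA and 4.57 and 4.29 FPKM with Lkb1 siRNA, so that both Lkb1 siRNA libraries lay below both controls. In counts it averaged 38.9 ± 6.0 CPM and 25.0 ± 1.15 CPM (SD, n = 2 per group). The log2 fold change was -0.64 (SE 0.115, adjusted p by edgeR = 0.101), and -0.74 in batch 1 and -0.52 in batch 2. With the batch block the edgeR adjusted p was 5.27e-14. DESeq2 gave an adjusted p of 0.012. With 1 library left out, the log2 fold change of Itga6 lay between -0.79 and -0.47. Among its deposited transcript estimates, NM_008397 stood at 6.65, 5.01, 3.34 and 3.71 FPKM and NM_001277970 at 0.71, 1.04, 1.23 and 0.58 FPKM, and the groups overlapped for the second but not for the first.

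Itga10, a collagen receptor subunit known from cartilage, lay at 2.86 and 3.21 FPKM with control siRNA and 3.81 and 4.58 FPKM with Lkb1 siRNA. Its log2 fold change was 0.43 (SE 0.126, adjusted p by edgeR = 0.283), and with the block the adjusted p was 3.18e-04. Itga9, whose promoter is printed above and whose receptor binds tenascin C and osteopontin, lay at 2.19 and 2.69 FPKM with control siRNA and 2.80 and 3.25 FPKM with Lkb1 siRNA. The groups did not overlap in either gene. For Itga9 the log2 fold change was 0.28 (SE 0.129, adjusted p by edgeR = 0.465, or 0.031 once batch was a block), and it was 0.15 when control siRNA replicate 1 was left out and 0.17 when Lkb1 siRNA replicate 2 was. Of the other 8 alpha subunits none passed with the block, beside 13.6% of all genes tested. Of these 8, 7 had a higher mean after Lkb1 siRNA, beside 50.2% of all genes tested.

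Itgb3, the beta subunit of the vitronectin receptor with alpha V and of the platelet receptor with Itga2b, was the beta subunit called with the block. It stood at 3.8 and 4.83 FPKM with control siRNA and 5.14 and 6.47 FPKM with Lkb1 siRNA. The lowest Lkb1 siRNA library exceeded the highest control, and both groups were higher in batch 2. The log2 fold change was 0.39 (SE 0.137, adjusted p by edgeR = 0.351), 0.39 in batch 1 and 0.40 in batch 2, and with the block the adjusted p was 4.51e-05. Leaving out 1 library decided the call without a block: the edgeR adjusted p was 0.0277 without control siRNA replicate 2 and 0.0419 when Lkb1 siRNA replicate 1 was left out, with log2 fold changes of 0.56 and 0.55. It was 0.365 when control siRNA replicate 1 was left out and 0.962 when Lkb1 siRNA replicate 2 was, with log2 fold changes of 0.25 and 0.22. Its partner Itgav gave 0.10 (SE 0.0642, adjusted p by edgeR = 0.573), and Itga2b gave 0.09 (SE 0.177, adjusted p by edgeR = 0.885).

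Of the cadherins, Cdh13 was lower and Cdh24 and Cdh6 higher in the fit with the block (42.9% of 7, against 13.6% of all genes tested). Cdh13, or T-cadherin, which is held in the membrane by a lipid anchor and lacks the cytoplasmic tail that binds catenins, stood at 3.53 and 4.65 FPKM with control siRNA and 2.69 and 2.76 FPKM with Lkb1 siRNA. Its log2 fold change was -0.63 (SE 0.152, adjusted p by edgeR = 0.196), -0.44 in batch 1 and -0.77 in batch 2, with an adjusted p of 3.25e-06 with the block. Leaving out control siRNA replicate 1 gave -0.80 and an edgeR adjusted p of 0.00321. Each of the other 3 libraries left out gave values that did not pass, with edgeR adjusted p between 0.167 and 0.203; the smallest log2 fold change, -0.43, came without control siRNA replicate 2. Cdh13 thus differed between the groups in both batches, with the larger gap in batch 2, where its control library was highest.

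Cdh24, a type II cadherin with the GC boxes printed above, stood at 3.72 and 4.08 FPKM with control siRNA and 5.29 and 5.04 FPKM with Lkb1 siRNA. Its log2 fold change was 0.42 (SE 0.122, adjusted p by edgeR = 0.283, or 0.00357 once batch was a block). The deposited transcript estimates divided it unequally: XM_030247793 stood at 1.49, 1.36, 2.53 and 2.36 FPKM, while NM_199470 stood at 1.70, 1.85, 1.44 and 1.69 FPKM. Both Lkb1 siRNA libraries were thus higher for the first transcript. For the second they were lower only narrowly, with 1.69 against 1.70 FPKM at the boundary. XM_030247794 stood at 0.43, 0.51, 1.09 and 0.66 FPKM, higher in both, and XM_006518975 overlapped, at 0.10, 0.36, 0.24 and 0.32 FPKM. The counting could split shared reads between these transcripts, so opposite changes are uncertain. Cdh6, a type II cadherin of the early crest, stood at 1.16 and 0.99 FPKM with control siRNA and 1.39 and 1.45 FPKM with Lkb1 siRNA (log2 fold change 0.37 with SE 0.145, adjusted p by edgeR = 0.383, or 0.0253 once batch was a block), and its log2 fold change was 0.25 when control siRNA replicate 2 was left out. Cdh10, the least abundant cadherin member, had counts of 27 and 28 with control siRNA and 11 and 18 with Lkb1 siRNA. Its log2 fold change of -0.87 (SE 0.346) did not pass either with the block (edgeR adjusted p = 0.0855) or without it (edgeR adjusted p = 0.396).

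**Figure D4:**
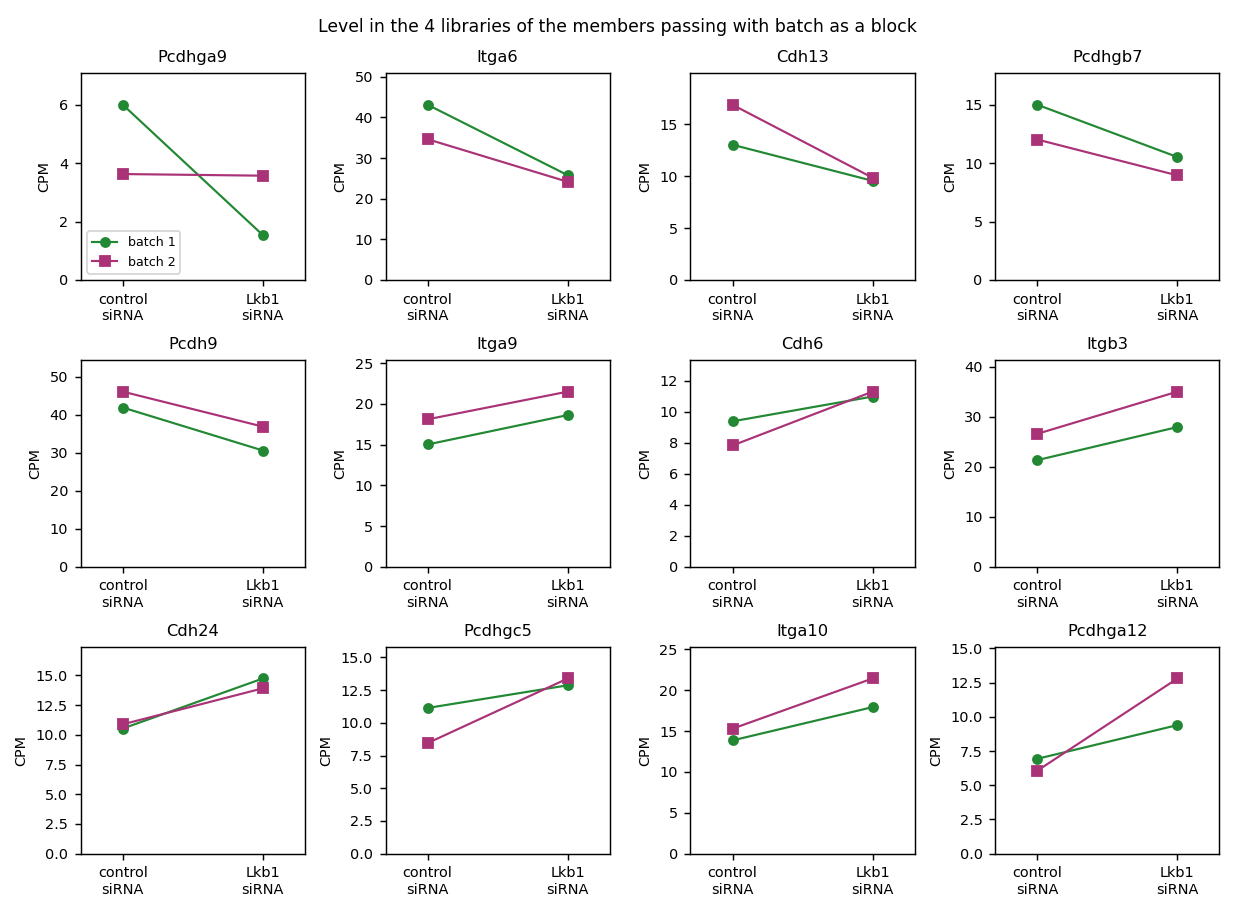
Level in CPM of the 12 members called with batch as a block, with a line joining the control siRNA and Lkb1 siRNA libraries of each batch and axes starting at 0. The lines of both batches slope the same way for the 12 genes, but the batch 2 line of Pcdhga9 is nearly flat.

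Among the non-clustered protocadherins, Pcdh9, a delta protocadherin known from the nervous system, was called with the block. It stood at 7.03 and 7.94 FPKM with control siRNA and 5.27 and 6.41 FPKM with Lkb1 siRNA, a log2 fold change of -0.38 (SE 0.105, adjusted p by edgeR = 0.260, or 4.23e-06 once batch was a block). By edgeR the adjusted p was 0.0318 when control siRNA replicate 1 was left out, and 0.0479 when Lkb1 siRNA replicate 2 was. It was 0.182 when control siRNA replicate 2 was left out and 0.814 when Lkb1 siRNA replicate 1 was, where the log2 fold change was -0.25. Pcdh18, Pcdh7, Pcdh19 and Pcdh1 had log2 fold changes between -0.09 and 0.04 and did not pass.

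The gamma array gave 4 calls among 11 members with the block, 2 in each direction. That was 36.4%, against 13.6% of all genes tested. The uncertainty of shared exons applies to each call. Pcdhga12 stood at 1.42 and 1.27 FPKM with control siRNA and 1.98 and 2.71 FPKM with Lkb1 siRNA (log2 fold change 0.78 with SE 0.182, adjusted p by edgeR = 0.194, or 7.47e-07 once batch was a block). Pcdhgc5 stood at 2.46 and 1.91 FPKM and then 2.94 and 3.07 FPKM (0.43, SE 0.154, adjusted p by edgeR = 0.358, or 0.00406 once batch was a block). Pcdhgb7 stood at 3.33 and 2.73 FPKM and then 2.42 and 2.06 FPKM (-0.47, SE 0.155, adjusted p by edgeR = 0.326, or 0.00132 once batch was a block). In these 3 genes the groups did not overlap and both batches differed in the same direction.

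Pcdhga9 had the widest gap and the least even one. It stood at 1.33 and 0.82 FPKM with control siRNA and 0.35 and 0.81 FPKM with Lkb1 siRNA. The log2 fold change was -0.90 (SE 0.367, adjusted p by edgeR = 0.408), made up of -1.90 in batch 1 and -0.02 in batch 2, and its block adjusted p of 0.00307 rests on the batch 1 pair. Without Lkb1 siRNA replicate 2 its edgeR adjusted p was 0.00523, with a log2 fold change of -1.64. With each of the other libraries left out, edgeR adjusted p for Pcdhga9 lay between 0.116 and 0.958, with -0.49 when control siRNA replicate 1 was left out and -0.42 when Lkb1 siRNA replicate 1 was.

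The calls of the other gamma genes without a block also depended on which library was left out. Pcdhga12 had an edgeR adjusted p of 0.021 without control siRNA replicate 1 and 0.00319 when Lkb1 siRNA replicate 1 was left out, but 0.0779 for control siRNA replicate 2 and 0.677 for Lkb1 siRNA replicate 2. Pcdhgb7 passed without control siRNA replicate 2 (edgeR adjusted p = 0.0334) and lay between 0.274 and 0.907 otherwise, with a log2 fold change of -0.31 when control siRNA replicate 1 was left out. Pcdhgc5 passed without control siRNA replicate 1 (edgeR adjusted p = 0.0383) and lay between 0.536 and 0.842 otherwise, with 0.24 when control siRNA replicate 2 was left out. The 7 beta array members all had a higher mean after Lkb1 siRNA, with log2 fold changes from 0.01 to 0.44. So did 50.2% of all genes tested, and 1274 of the 2405 that averaged 20 to 200 counts, as these 7 did. The median log2 fold change of the 7 was 0.32 for siRNA and 0.52 for batch 2 over batch 1. The siRNA groups overlapped for 6 of the 7, while 42.7% of all genes tested did not overlap. None of the 7 passed in either fit.

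The 4 family sums lay close together in the siRNA groups. The log2 ratio of Lkb1 siRNA over control siRNA was 0.08 for the alpha subunits, -0.01 for the beta subunits, -0.01 for the cadherins and 0.03 for the protocadherins. The exact two-sided permutation p was 0.333, 1.0, 1.0 and 0.667, and 0.333 is the smallest that 2 libraries against 2 can give. In FPKM the alpha subunit sum was higher in both Lkb1 siRNA libraries than in both controls, while the other 3 sums overlapped. Summed in CPM, the alpha subunits overlapped between the groups too.

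Some members differed between the culture batches. In a fit with siRNA and batch as terms, edgeR called 6 members higher and 1 lower in batch 2, 14.9% of the members against 12.9% of all genes tested (6.3% higher, 6.62% lower). These calls rest on the siRNA term and the tool: with batch alone edgeR called 0 higher and 0 lower, and DESeq2 called 1 higher and 0 lower. Cdh11 had the smallest p, with 96.34 and 99.28 FPKM in batch 1 and 121.31 and 117.82 FPKM in batch 2 (log2 fold change 0.27 with SE 0.0468, edgeR adjusted p = 8.42e-07). For Cdh11 the batches did not overlap and the siRNA groups did. The cadherin sum, most of it Cdh11, had a log2 ratio of 0.22 for batch 2 over batch 1 (exact permutation p = 0.333).

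Itgb3 was higher in batch 2 by 0.32 on the log2 scale (edgeR adjusted p = 0.00153), Itga2b by 0.38 (edgeR adjusted p = 0.0163) and Pcdh9 by 0.20 (edgeR adjusted p = 0.0436). Itga2b stood at 2.90 and 3.16 FPKM in batch 1 and 3.83 and 4.16 FPKM in batch 2. The gamma genes Pcdhgb2 (0.70, edgeR adjusted p = 0.00415) and Pcdhga11 (0.53, edgeR adjusted p = 0.0434) were also higher, and Itga6 was lower by 0.22 (edgeR adjusted p = 0.0344). Itga6, Itgb3 and Pcdh9 are the 3 members called both for siRNA with the block and for batch.

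**Figure D5:**
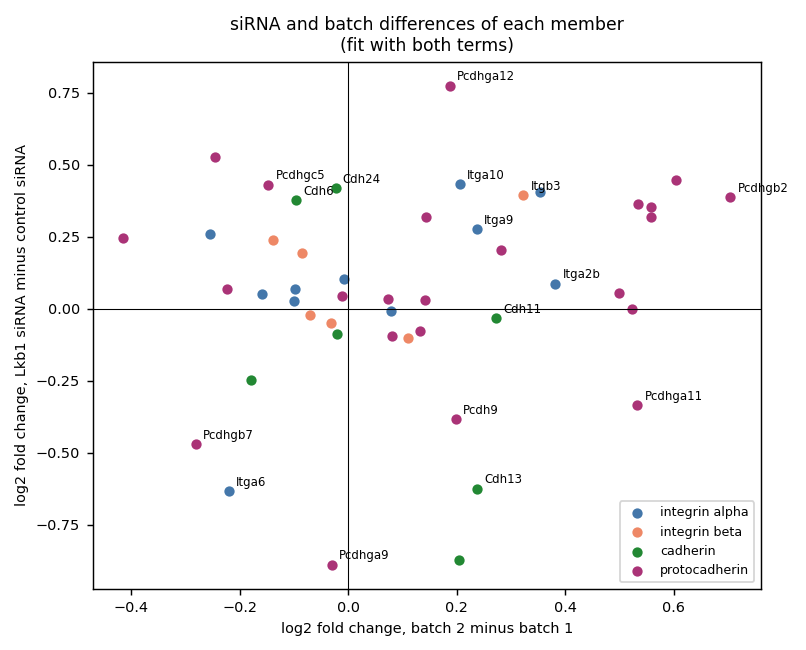
Log2 fold change between siRNA groups against log2 fold change between batches for the 47 members, from the fit with both terms, coloured by family. Labelled points passed for siRNA or for batch; Cdh11 lies at 0.27 on the batch axis and near 0 on the siRNA axis.

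The genes around these receptors were taken from lists of linkers, ligands and regulators. None passed without the block in any list (edgeR), beside 0.0818% of all genes. With the block, edgeR called 2 of the 69 listed partner genes tested higher (2.9%) and 19 lower (27.5%). Over all genes tested the shares were 6.59% and 6.99%. Deeper genes were called more often: of the 2188 averaging over 2000 counts, 138 were called higher and 334 lower. Most of the lower ones were integrin ligands, where 13 of 18 tested were lower and 0 higher, with a median log2 fold change of -0.17 against 0.00 over all genes. Lama5, a laminin chain of basement membranes, stood at 103.8 and 114.7 CPM with control siRNA and 80.6 and 89.9 CPM with Lkb1 siRNA (log2 fold change -0.36 with SE 0.0817, adjusted p by edgeR = 0.182, or 2.42e-09 once batch was a block). Col1a1, a fibrillar collagen chain, went from 2564 and 3193 CPM to 2055 and 2468 CPM (-0.35, SE 0.112, adjusted p by edgeR = 0.319, or 1.36e-14 once batch was a block), and its log2 fold change was -0.18 when control siRNA replicate 2 was left out. Fbn1, or fibrillin, gave -0.27 (SE 0.0704, adjusted p by edgeR = 0.227, or 2.36e-06 once batch was a block). Col4a2, a basement membrane collagen, gave -0.19 (SE 0.0632, adjusted p by edgeR = 0.325, or 7.16e-04 once batch was a block). The integrin alpha subunits in the same fit gave 2 calls higher and 1 lower (27.3% of 11, beside 13.6% of all genes tested).

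Linkers between the receptors and actin gave fewer calls than the ligands. Of 24 integrin linkers tested, edgeR with the block called 0 higher and 4 lower (16.7%). Over all genes tested 6.59% were called higher and 6.99% lower. Among genes averaging over 2000 counts, as Vcl, Actn1 and Zyx did, 21.6% were called in either direction. Parvb, or beta-parvin, stood at 33.5 and 34.2 CPM with control siRNA and 27.0 and 27.6 CPM with Lkb1 siRNA (log2 fold change -0.31 with SE 0.0856, adjusted p by edgeR = 0.260, or 0.00133 once batch was a block). Vcl (-0.14), Actn1 (-0.14) and Zyx (-0.16), for vinculin, alpha-actinin and zyxin, were the others, and Zyx is named because the count is small. The siRNA groups overlapped for these 3 genes, and each was called lower in batch 2 with a larger log2 fold change than for siRNA: -0.16 for Vcl, -0.20 for Actn1 and -0.28 for Zyx. When control siRNA replicate 1 was left out, Vcl gave -0.01 and Actn1 -0.04, and Actn1 gave -0.04 also when Lkb1 siRNA replicate 2 was left out. Of 10 cadherin linkers tested, Ptpn14, a phosphatase at cell junctions, was the 1 called (10%, against 13.6% of all genes tested). It gave 0.15 (SE 0.0688, adjusted p by edgeR = 0.448, or 0.0404 once batch was a block). Ctnnb1, the catenin that joins cadherin tails to the actin-binding catenins, averaged 252 FPKM and was not called.

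Of the 10 regulators of the cadherin switch, Snai2, a repressor of E-cadherin, was the 1 called (10%, against 13.6% of all genes tested). It was lower by the block fit (-0.17, SE 0.0857, adjusted p by edgeR = 0.503, or 0.0157 once batch was a block). It stood at 94.4 and 92.9 CPM with control siRNA and 90.2 and 76.4 CPM with Lkb1 siRNA, and gave -0.05 when Lkb1 siRNA replicate 2 was left out. Snai1, Snai2 and Zeb1, whose proteins bind the E-box form counted above, averaged 22.7, 50.9 and 15.5 FPKM. Of 7 other genes of the cadherin superfamily tested, 2 were called with the block (28.6%, against 13.6% of all genes tested). Fat4 was called higher (0.21, SE 0.218, adjusted p by edgeR = 0.763, or 0.00256 once batch was a block). Clstn1 was called lower (-0.18, SE 0.0656, adjusted p by edgeR = 0.358, or 0.00297 once batch was a block). Fat4 stood at 61.7 and 95.8 CPM with control siRNA and 71.3 and 111 CPM with Lkb1 siRNA, so that the groups overlapped. Its batch difference was 0.64 (edgeR adjusted p = 7.87e-27), and its siRNA difference turned to -0.07 when control siRNA replicate 1 was left out and to -0.14 when Lkb1 siRNA replicate 2 was.

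Some cell markers differed between the siRNA groups. The summed smooth muscle and fibroblast markers stood at 1682 and 1897 FPKM with control siRNA and 1444 and 1607 FPKM with Lkb1 siRNA, with no overlap. This list shares Col1a1 and Col3a1 with the integrin ligands. Of its 8 tested genes, edgeR with the block called 5 lower and 0 higher, beside 6.99% and 6.59% of all genes tested. Of the 2188 genes averaging over 2000 counts, 334 were called lower and 138 higher. Acta2, smooth muscle actin, gave -0.41 (SE 0.0709, adjusted p by edgeR = 0.0908, or 1.59e-14 once batch was a block). The neural crest progenitor markers did not move together, and their sums overlapped, at 68.44 and 68.71 FPKM with control siRNA and 73.37 and 68.08 FPKM with Lkb1 siRNA. Of 7 tested, 1 was called with the block, near the share of 13.6% over all genes tested. That gene was Erbb3, a receptor of crest and glial precursors, with -0.65 (SE 0.136, adjusted p by edgeR = 0.139, or 7.27e-06 once batch was a block). Sox9 gave 0.11, Twist1 0.04, Msx1 0.00 and Ets1 -0.04. Tubb3, a neuronal tubulin, stood at 7.75 and 7.71 FPKM with control siRNA and 11.6 and 8.24 FPKM with Lkb1 siRNA (0.32, adjusted p by edgeR = 0.515, or 0.0436 once batch was a block). The part of these markers in the members' differences was not tested.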

How the data were processed

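RNA-seq was done on 4 libraries of 1 cell line, 2 per siRNA group, with read pairs of 150 bp per the labels' protocols. The submitters' processing notes name RSEM 1.2.8, Bowtie2 2.2.5 and HISAT2 2.0.4 and the build GRCm39, and the sources used here do not name the annotation. The deposited gene table gave expected counts, made by the authors and not all whole (5.73 to 5.97% of gene counts per library were not within 0.001 of a whole number). FPKM was deposited beside them. TPM was the authors' deposited value for the same genes in the same libraries. In 24 cells a doubled decimal point was read as 1.

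Counts were rounded and tested with edgeR 4.0.16 (R 4.3.3), quasi-likelihood F-test, TMM, expression filter with minimum count 10, over 12222 genes, with Benjamini-Hochberg adjustment and threshold 0.05. SE was derived from the F statistic. Family sums used exact permutation tests (scipy 1.17.1). The labels state that the number marks a batch, so batch pairs the libraries (correlation of same-batch deviations 0.183). Nothing says the cultures were otherwise independent, so the spread between these libraries may be technical. The p-value of a gene rests mainly on spread estimated over all genes, and less on the gene's own. With the block, SE was 0.0486 for Pcdh19, whose log2 fold change was -0.17 in batch 1 and -0.02 in batch 2. For Itgav, with 0.10 and 0.11, it was 0.0494. Small p-values with the block carry this limit. The main test had no block; alternatives were the block, other scalings, DESeq2 1.42.0, other filters and leaving out each library. Genes named were the 5 most abundant members per family, members called with the block or for batch, the rows beside the threshold, up to 4 genes per list with the smallest p, Stk11, and, chosen after values were seen, Zyx, Acta2, Erbb3, Tubb3, Cdh3, Cdh5, Cdh1, Itga4 and the absent partners. Members and lists were chosen with earlier results of these data known. The scripts were tested on simulated counts.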

Additional observations from a re-analysis of the deposited data

How the results depend on the processing

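Limits: with 2 libraries per group, the spread is known mainly from other genes, and members under 200 counts had SE up to 0.367. Where 1 library is left out, the lone library of its group is assumed to vary like the other group. Higher after Lkb1 siRNA, 0 members were called, against 7 with the replicate block and 0 to 2 with 1 library left out. Lower, 0 were called, against 5 with the replicate block, 1 with DESeq2, 1 without the count filter and 1 to 3 with 1 library left out. Over all genes, calls went from 4 higher and 6 lower to 806 and 854 with the replicate block and 16 and 31 with DESeq2. Among partner genes, 0 higher and 0 lower became 2 and 19 with the replicate block, and 0 to 1 and 0 to 4 with 1 library left out. For batch, 6 members higher and 1 lower became 1 and 0 with DESeq2, 0 and 0 with batch alone, and 0 lower with library size alone, and 0 to 1 in each direction with batch alone and 1 library left out. The protocadherin sum moved from 0.03 to -0.0136 in CPM, 0.0564 in TPM, 0.0083 without its highest member and -0.02 to 0.0846 with 1 library left out, and the cadherin sum ranged from -0.136 to 0.118 in the same way. With library size alone Itgb7 turned to 0.0106 and Stk11 gave an edgeR adjusted p of 0.0633. The direction of other named genes turned only with 1 library left out, with log2 fold changes from -0.0378 to 0.0966 for Itga3, -0.00232 to 0.143 for Itga5, -0.0571 to 0.0166 for Itgb7, -0.18 to 0.124 for Cdh11, -0.0104 to 0.0798 for Pcdhgc3, -0.0113 to 0.943 for Pcdhgb2, -0.12 to 0.288 for Itga2b, -0.632 to 0.0424 for Pcdhga11, -0.255 to 0.651 for Pcdhb19 and -0.143 to 0.564 for Fat4. The causes were not tested.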
